A study of Mus musculus with 16 samples.

Results

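Lungs of ARF-DTR mice were compared with lungs of wild type mice, both 12 months old and both given PBS. The comparison took the 4 ARF-DTR PBS samples and the 2 wild type PBS samples, 6 of the 16 samples in the series, and was chosen by genotype, age and treatment alone. ARF-DTR mice carry the diphtheria toxin receptor under the promoter of Arf, a transcript of the Cdkn2a locus, so that diphtheria toxin (DT) can remove cells in which that promoter is active. All mice were female. At 12 months they received intraperitoneal PBS or DT (50 µg per kg body weight) every 2 weeks for 1 month, while 2-month ARF-DTR mice were left untreated. The question was how the transgenic line itself differed from wild type in the absence of toxin. The labels used here do not give the strain background of either genotype, the time of day at which lungs were taken, or whether every sample was 1 mouse. The p-values below therefore reflect only how far these samples scattered, which could be technical. For wild type PBS replicate 1 a free-text label names DT, against its title, source and treatment labels, which were followed, and the free-text labels of both wild type DT samples leave DT out.

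Total RNA of whole homogenised lung was labelled with Cy3 and read on single-colour Agilent arrays, 1 array per sample. The ARF-DTR PBS arrays lay on a first slide, beside the 4 arrays of 2-month ARF-DTR lungs, and the wild type PBS arrays lay on a second slide, beside 4 ARF-DTR DT and 2 wild type DT arrays. Slide and genotype therefore cannot be told apart in the PBS comparison. ARF-DTR DT against wild type DT is a genotype comparison within the second slide that shares no array with it, and it was used as the check. Below, rises and falls with PBS or with DT are those of ARF-DTR relative to wild type under the same treatment. Levels are given as log2 signal relative to the 75th percentile of the array. That percentile was at an intensity of 979 ± 72.3 (SD, n = 4) on the ARF-DTR PBS arrays and 646 ± 45.2 (SD, n = 2) on the wild type PBS arrays, and between 55.6% and 67.0% of probes were well above background on every array of the series. Arrays of the same group differed by a median of 0.15 (log2) per gene, arrays of different groups on a slide by 0.18, and arrays on different slides by 0.27. Lung identity was clear in every group: Sftpc, the surfactant protein made by alveolar type 2 cells, lay between 8.64 and 8.88 on the ARF-DTR PBS arrays and at 9.28 and 9.12 on the wild type PBS arrays.

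Of 25581 genes tested, 6044 (23.6%) passed an adjusted p under 0.05 (limma, Benjamini-Hochberg over all genes) between ARF-DTR PBS and wild type PBS lungs, 2791 higher (10.9%) and 3253 lower (12.7%) in ARF-DTR. At an unadjusted p under 0.05 it was 37% of genes, and in 48.6% the groups did not overlap. Without wild type PBS replicate 1 the count was 2318, and without replicate 2 it was 2550. The direction of this broad layer depended on the scaling: 46.2% of the calls were higher in ARF-DTR, against 30.8% when arrays were scaled to their medians and 23.9% after another background correction (normexp). The median over all genes was -0.02, and -0.12 and -0.11 with those settings. A change of at least 2-fold was therefore asked for as well, which left 563 genes (2.2% of those tested), 80.8% of them higher in ARF-DTR (1.78% of those tested) and 108 lower (0.422%). The higher share was 69.3% with median scaling and 61.8% after normexp. Just inside that limit were Usp17la (1.001) and Skint9 (1.003), and just outside it Lrrc18 (-0.999) and Il9r (0.997).

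The 563 genes had a median difference of 1.32 (log2) with PBS, the value they were chosen on, and of 0.24 in the same direction in the check on the second slide. The sign was the same for 419 of them (74.4%, against 62.2% of all genes tested). With DT, 227 genes (0.887% of those tested) passed, 150 higher (0.586%) and 77 lower (0.301%) in ARF-DTR, and 15.6% had an unadjusted p under 0.05. The higher share, 66.1%, was 55.6% after normexp. Of the 563, 19 passed in the DT comparison in the same direction (0.0743% of the genes tested), 12 higher (0.0469%) and 7 lower (0.0274%), and 0 passed in the opposite direction (16 did at an unadjusted p under 0.05, and 114 in the same direction; limma). These 19 are 3.37% of the 563 and 8.37% of the 227. Both counts with DT leaned on the spread shared by all 16 arrays. When each comparison was fitted on its own arrays alone, 6 genes passed with DT and of the 19 only Arntl kept both calls. Leaving out ARF-DTR DT replicate 2, 3 or 4 gave 94, 86 or 78 genes with DT and 10, 12 or 11 in place of the 19.

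ARF-DTR DT against wild type PBS, also within the second slide, differs in treatment as well as genotype and shares its wild type arrays with the PBS comparison. It gave 1403 genes (5.48%), 541 higher (2.11%) and 862 lower (3.37%). The higher share was 38.6%, and 64.1% with median scaling. The count was 202 or 355 without wild type PBS replicate 1 or 2, and 771 or 564 without ARF-DTR DT replicate 3 or 4. Arntl differed by 0.93 ± 0.19 (limma adjusted p = 0.0174), Dbp by -1.86 ± 0.26 (adjusted p = 0.00366) and Rgs2 by -1.29 ± 0.11 (adjusted p = 0.000183). Spon2 had 0.92 and Tspan4 -0.47, which did not pass (adjusted p = 0.0626 and 0.0801).

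**Figure D1:**
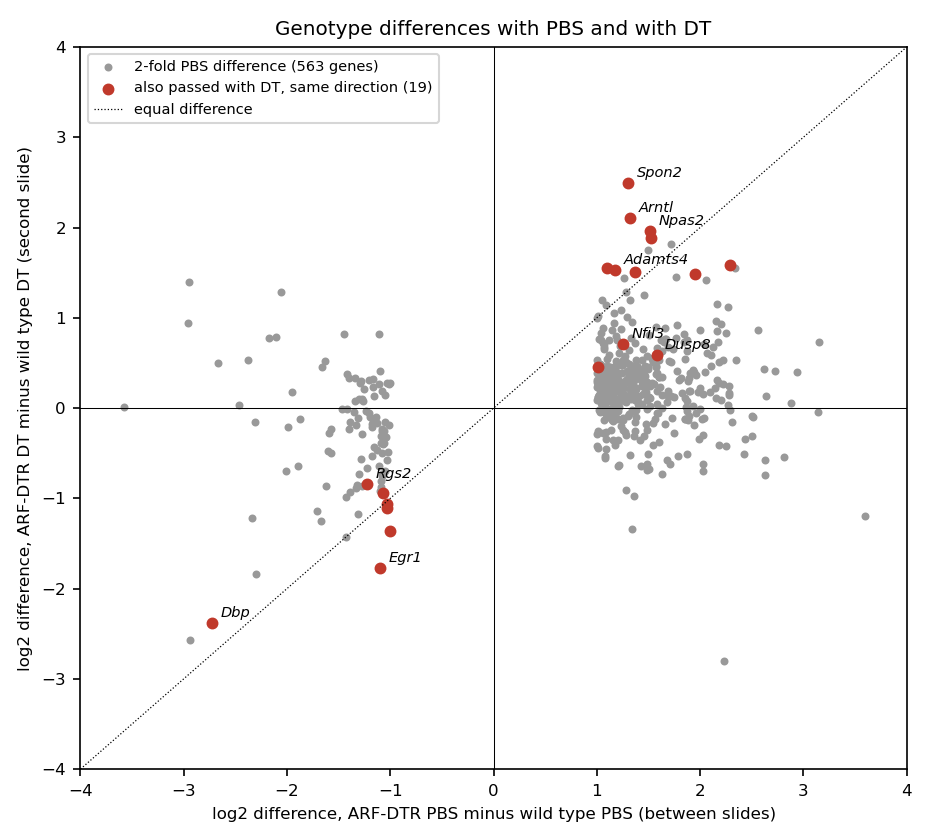
Genotype difference in log2 with PBS (horizontal axis, between slides) and with DT (vertical axis, within the second slide) for the 563 genes with a 2-fold PBS difference; red points are the 19 that also passed with DT in the same direction, and the dotted line marks equal differences. Most grey points lie near 0 on the vertical axis, while Dbp, at -2.72 and -2.38, lies near the dotted line.

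Genes of the circadian clock made up 6 of these 19 (Arntl, Npas2, Nfil3, Dbp, Nr1d2 and Hlf). The mammalian clock is a transcriptional loop in which ARNTL, paired with CLOCK or NPAS2, binds E-boxes and drives Per, Cry, Nr1d1, Nr1d2, Dbp, Tef and Hlf. The PER and CRY proteins then inhibit that pair, and NR1D1 and NR1D2 (REV-ERBα and REV-ERBβ) repress Arntl, Npas2 and Nfil3 through ROR elements. DBP, TEF and HLF activate, and NFIL3 represses, genes with D-boxes. All 19 listed genes of the clock and its output were measured. With PBS 12 passed, 4 higher and 8 lower in ARF-DTR (median -0.15, against -0.02 over all genes). These were 21.1% and 42.1%, against 10.9% and 12.7% of all genes. With DT 10 passed, 4 higher and 6 lower (median -0.46, against 0.01), where 0.586% and 0.301% of all genes did. Passing in both, in the same direction, were 8: Arntl, Npas2 and Nfil3 higher, and Dbp, Nr1d2, Tef, Hlf and Per3 lower.

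The arm repressed by REV-ERB was higher in ARF-DTR. Arntl (probe at chr7:120457261-120457320, build mm9, plus strand), the core activator, measured 1.21, 1.14, 1.11 and 1.09 in ARF-DTR PBS lungs against -0.09 and -0.29 in wild type PBS lungs. The difference was 1.32 ± 0.19 (SE, 2.5-fold; limma adjusted p = 0.000806), and with DT it was 2.10 ± 0.19 (adjusted p = 0.000623). ARF-DTR DT lungs lay at 0.62 to 0.88. Wild type DT lungs, at -1.28 and -1.44, lay below both wild type PBS lungs, so the wild type level was not constant. The groups did not overlap in either comparison, and Arntl passed under every alternative tried. Npas2, the partner that can stand in for CLOCK, lay between -4.58 and -4.30 in ARF-DTR PBS lungs. It was not well above background on any wild type array of either treatment, so that the difference is a bound, at least 2.23-fold with PBS and at least 2.22-fold with DT, set by the dimmest signal that counted as above background there; the fit gave an adjusted p of 0.000641 with PBS and 0.00148 with DT. After normexp correction, which compresses dim probes, the Npas2 PBS difference was 0.06 (limma adjusted p = 0.550). Nfil3, the D-box repressor, was at 1.70, 1.92, 1.54 and 1.68 against 0.39 and 0.52, a difference of 1.26 ± 0.15 (adjusted p = 0.000243), and 0.71 ± 0.15 with DT (adjusted p = 0.0463), a call lost under 9 of the 17 alternatives tried. Clock itself lay at 0.65 to 0.89 with PBS in ARF-DTR and at 0.63 and 0.75 in wild type (0.07 ± 0.08, limma adjusted p = 0.574), so the groups overlapped. With DT it was at 0.72 to 0.86 against 0.50 and 0.32, a difference of 0.38 ± 0.08 that passed narrowly (adjusted p = 0.0498).

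Cry1, a repressor with both E-box and ROR control, rose with PBS by 1.05 ± 0.17 (limma adjusted p = 0.00158), from -3.95 and -3.71 in wild type to between -3.00 and -2.59 in ARF-DTR. With DT its difference was 0.11 (adjusted p = 0.810). The test of the difference between the 2 genotype differences gave an adjusted p of 0.0622 for Cry1, so the 2 were not shown to differ.

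The output arm was lower in ARF-DTR. Dbp (probe at chr7:52965461-52965520, mm9, plus strand), a D-box activator with a strong daily rhythm, measured 1.64, 1.87, 2.46 and 2.20 in ARF-DTR PBS lungs and 4.86 and 4.67 in wild type PBS lungs. This was a difference of -2.72 ± 0.26 (6.60-fold lower; limma adjusted p = 4.97e-05), and -2.38 ± 0.26 with DT (adjusted p = 0.00156). No ARF-DTR array of 12 months, at 1.64 to 3.31, reached any wild type array, at 4.67 to 5.41. Tef, its paralogue, measured 4.73 to 4.86 against 5.67 and 5.66, a difference of -0.87 ± 0.15 (adjusted p = 0.00215), and -1.09 with DT (adjusted p = 0.00651). Hlf, the third member of that family, differed by -1.03 ± 0.23 (adjusted p = 0.00736) and by -1.11 with DT (adjusted p = 0.0432). Hlf lost its call with DT under 9 of the 17 alternatives tried.

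Other repressors were lower in ARF-DTR PBS lungs, while the Per and Cry genes were mixed. Nr1d1, a repressor of Arntl, measured -0.47, -0.21, -0.23 and -0.79 in ARF-DTR PBS lungs against 1.34 and 1.06, a difference of -1.62 ± 0.20 (limma adjusted p = 0.000354). With DT the difference was -0.86 and did not pass (adjusted p = 0.0662), although the groups did not overlap. Nr1d2, its paralogue, measured 1.45 to 2.00 against 2.74 and 2.80, a difference of -1.03 ± 0.16 (adjusted p = 0.00122), and -1.06 with DT (adjusted p = 0.0107). Per3 was at -3.42 to -2.94 against -2.28 and -2.35, a difference of -0.90 ± 0.24 (adjusted p = 0.0166), and -1.43 with DT (adjusted p = 0.0189). Bhlhe41 and Bhlhe40, E-box repressors, fell with PBS by 0.93 and 0.51 (adjusted p = 0.0123 and 0.0189) and had -0.81 and -0.29 with DT, which did not pass (adjusted p = 0.115 and 0.336). Per1, Per2, Cry2 and Rora did not pass in either comparison. Per1 changed sign between them without overlap of the groups. It was at 3.48 to 4.14 in ARF-DTR against 3.09 and 3.41 in wild type with PBS. With DT it was at 3.60 to 4.11 against 4.21 and 4.46.

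Ciart, an inhibitor of the ARNTL complex, had differences of opposite sign in the 2 comparisons. It lay at -1.89, -1.68, -1.76 and -2.04 in ARF-DTR PBS lungs and at -2.37 and -2.12 in wild type PBS lungs, a difference of 0.40 ± 0.24 that did not pass (limma adjusted p = 0.242). With DT it was 1.32 lower in ARF-DTR than in wild type (limma adjusted p = 0.0268). ARF-DTR DT lungs lay at -2.73 to -1.78. Wild type DT lungs, at -1.21 and -0.79, lay above both wild type PBS lungs. The 2 genotype differences differed by 1.73 (adjusted p = 0.0248), a test that 538 of all genes passed (2.1%), 1.25% with a positive and 0.848% with a negative sign. The positive share of 59.7% became 39.4% with median scaling and 20.3% after normexp. The count lay between 226 and 1108 when single arrays were left out, and moved over 1.5 times without ARF-DTR PBS replicate 1 or 3, ARF-DTR DT replicate 2, 3 or 4, either wild type PBS array or wild type DT replicate 2. Slide and the response to DT both enter that test and cannot be told apart.

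**Figure D2:**
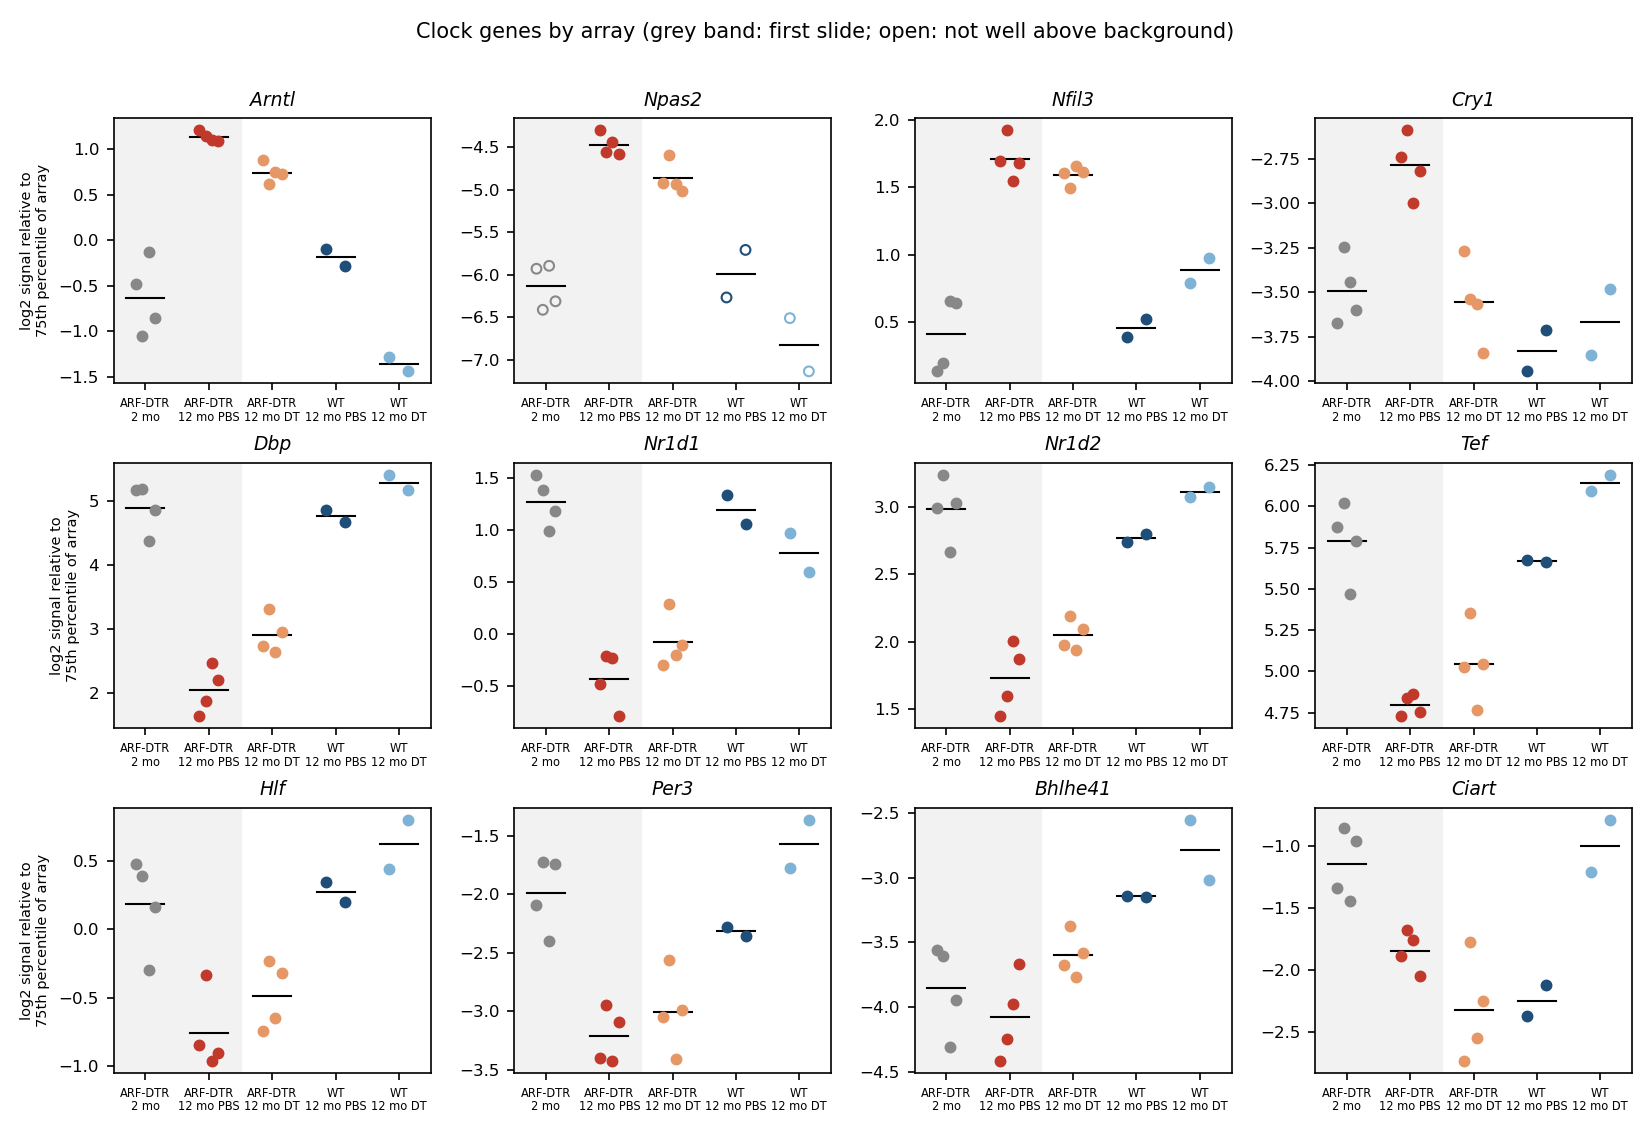
Log2 signal relative to the 75th percentile of the array for 12 clock genes; each point is an array, bars are group means, open points were not well above background, and the grey band marks the first slide. In Dbp, Tef and Per3 every 12-month ARF-DTR point lies below every wild type point, while the 2-month ARF-DTR points of the first slide lie near the wild type ones.

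The 2-month ARF-DTR arrays, on the same slide as the ARF-DTR PBS arrays, did not share these clock levels. They measured 4.38 to 5.19 for Dbp, -1.06 to -0.13 for Arntl, 0.99 to 1.53 for Nr1d1 and 0.13 to 0.66 for Nfil3. Npas2 was not well above background on any of them. For Dbp, Nr1d1 and Nfil3 these ranges include both wild type PBS values, and the 2 groups of the first slide lay apart for all 5 genes. The 2-month lungs differ from the 12-month ones in age and in the injections, which cannot be told apart. The labels give the time of day of collection for no group, and its part in the clock levels was not tested.

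Promoter sequence from RefSeq (build GRCm38.p6) is shown for 5 clock genes in which a motif lay before the start, and for Tspan4 and Dusp8, described below. Windows of 250 bases before to 50 after a start were searched on both strands for the E-box CACGTG, the D-box TTATGTAA, the ROR core TAGGTCA and the cAMP response element TGACGTCA. Of 32851 windows, 7.15% held the E-box, 0.938% the D-box, 2.61% the ROR core and 1.79% the cAMP response element. A window was found for 16 of the 19 clock genes. The E-box was in those of 5 (Per1, Cry1, Tef, Bhlhe41 and Ciart), the D-box in that of 1 (Per3) and the ROR core in those of 2 (Arntl, after its start, and Nfil3). A match is a description of letters and not of binding. Stretches before the start are given 5′ to 3′ on the strand of the gene, with matches in capitals:
Per3, chr4:151044796-151044890, minus strand: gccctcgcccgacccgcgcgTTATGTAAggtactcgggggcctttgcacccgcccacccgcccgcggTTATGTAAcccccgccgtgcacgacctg
Ciart, chr3:95882247-95882364, minus strand: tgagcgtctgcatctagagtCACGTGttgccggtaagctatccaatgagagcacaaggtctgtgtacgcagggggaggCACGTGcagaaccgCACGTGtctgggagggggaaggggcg
Tef, chr15:81802526-81802571, plus strand: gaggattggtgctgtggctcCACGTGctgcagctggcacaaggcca
Tef, chr15:81811256-81811301, plus strand: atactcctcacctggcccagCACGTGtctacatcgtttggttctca
Cry1, chr10:85185089-85185134, minus strand: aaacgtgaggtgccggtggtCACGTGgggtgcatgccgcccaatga
Nfil3, chr13:52981040-52981071, minus strand: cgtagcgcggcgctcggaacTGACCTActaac
Tspan4, chr7:141476309-141476354, plus strand: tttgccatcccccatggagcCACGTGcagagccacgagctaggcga
Dusp8, chr7:142095320-142095411, minus strand: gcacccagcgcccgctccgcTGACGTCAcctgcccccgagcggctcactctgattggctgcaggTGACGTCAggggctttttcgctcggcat

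Per3, lower in ARF-DTR in both comparisons, held 2 D-boxes, 205 and 158 bases before its start, and so carried the letters read by DBP, TEF and HLF. Tef held an E-box upstream of each of 2 starts (127 and 138 bases before). Ciart held 3 E-boxes, 116, 58 and 44 bases before its start. The Nfil3 match, 12 bases before the start, is the ROR core on the opposite strand.

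Outside the clock, 5 of the 12 higher genes had a symbol. Spon2, a secreted matrix protein that binds integrins, measured 3.19, 3.13, 2.96 and 3.02 in ARF-DTR PBS lungs against 1.79 and 1.75 in wild type PBS lungs. It differed by 1.31 ± 0.27 (limma adjusted p = 0.00507), and by 2.50 ± 0.27 with DT (adjusted p = 0.00148), where the wild type DT arrays lay at 0.76 and -0.37. The 2-month ARF-DTR arrays were at 1.70 to 2.56, below every ARF-DTR PBS array. Adamts4, an aggrecan-cleaving protease, lay at -1.63 to -1.01 against -2.67 and -2.34, a difference of 1.18 ± 0.23 (adjusted p = 0.00383), and 1.53 with DT (adjusted p = 0.0106). Without wild type PBS replicate 1 the Adamts4 adjusted p was 0.0534.

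Dusp8, a phosphatase of stress-activated kinases, measured 1.44, 1.75, 1.75 and 1.61 against 0.06 and 0.06, a difference of 1.58 ± 0.11 (limma adjusted p = 5.48e-06). With DT it was 0.59 (adjusted p = 0.0331), and the 2 differences differed (adjusted p = 0.00867), so its PBS difference was larger than that on the second slide by 0.99. Its upstream window held the cAMP response element at 107 and 63 bases before the start. Kcna5, a voltage-gated potassium channel of smooth muscle, was at -2.66 to -2.44 against -3.49 and -3.66, a difference of 1.01 ± 0.09 (adjusted p = 4.08e-05). With DT it was 0.45 (adjusted p = 0.0432; lost under 12 of 17 alternatives), and a second Kcna5 probe gave -1.15 there, so its direction with DT depends on the probe. Megf10, an engulfment receptor, was at -3.53 to -2.92 against -4.81 on the only wild type PBS array well above background and -5.48 on the other, a difference of 1.95 ± 0.28 (adjusted p = 0.000900). Its call with DT (limma adjusted p = 0.0334) was against wild type DT arrays not well above background, and was lost under 9 of 16 alternatives. The remaining 4, AK038006, AK086977, TC1700841 and a long noncoding transcript on chromosome 4, have no symbol and were not well above background on either wild type PBS array.

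Of the 7 lower genes, Rgs2, an inhibitor of Gq signalling that restrains vascular and airway tone, had the smallest standard error. It measured 4.23, 4.26, 4.50 and 4.13 in ARF-DTR PBS lungs and 5.55 and 5.46 in wild type PBS lungs, a difference of -1.23 ± 0.11 (limma adjusted p = 3.71e-05), and -0.84 with DT (adjusted p = 0.00526). The 2-month ARF-DTR arrays, at 4.57 to 4.94, were also below every wild type array, whose lowest was 5.005. Tspan4, a membrane tetraspanin, was at 1.30 to 1.44 against 2.48 and 2.42, a difference of -1.07 ± 0.15 (adjusted p = 0.000674), and -0.95 with DT (adjusted p = 0.0143). Its 2-month values, 1.99 to 2.67, spanned the wild type PBS values. An E-box lay 51 bases before its start. Of the 19 genes with a 2-fold PBS change and a call with DT, 10 had a promoter window. The E-box was in 1 of these 10, against 7.15% of all windows. Egr1, an immediate early transcription factor, was at 1.18 to 2.17 against 2.79 and 2.97, a difference of -1.10 ± 0.34 (adjusted p = 0.0342). With DT it was -1.77 (adjusted p = 0.0340), and leaving out either wild type array of a comparison ended the call (adjusted p from 0.0991 to 0.173). The seventh was a long noncoding transcript on chromosome 8.

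The genes the line is built around were examined next. Cdkn2a, which encodes ARF and p16INK4a, measured -2.03, -2.29, -1.96 and -1.79 in ARF-DTR PBS lungs and -2.18 and -1.52 in wild type PBS lungs. Its difference was -0.17 ± 0.34 (limma adjusted p = 0.752), with overlapping groups, and -0.13 with DT (adjusted p = 0.899). Its probe (chr4:88920405-88920464, mm9, minus strand) was not tested for whether it also reads the transgene. Cdkn2b, the neighbouring p15INK4b gene, measured 3.30, 3.41, 3.47 and 3.49 against 2.99 and 2.98, a difference of 0.43 ± 0.09 (1.35-fold; adjusted p = 0.00580). With DT it was 0.57 ± 0.09 (adjusted p = 0.0155). The 2-month ARF-DTR arrays were at 3.42 to 3.71, and every ARF-DTR array of the series, the lowest at 3.03, lay above every wild type array. With arrays scaled to their medians the Cdkn2b PBS adjusted p was 0.0552. Cdkn1a, the p21 inhibitor, rose from 1.21 and 1.02 to between 1.74 and 2.01, a difference of 0.79 ± 0.14 (1.73-fold; adjusted p = 0.00221), and 0.70 with DT (adjusted p = 0.0378), a call lost under 8 of the 17 alternatives. Its other probes gave PBS differences of 1.71 and 0.23. Hbegf, whose human form is the toxin receptor, had -0.29 ± 0.15 (adjusted p = 0.185) and 0.18 with DT (adjusted p = 0.640).

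**Figure D3:**
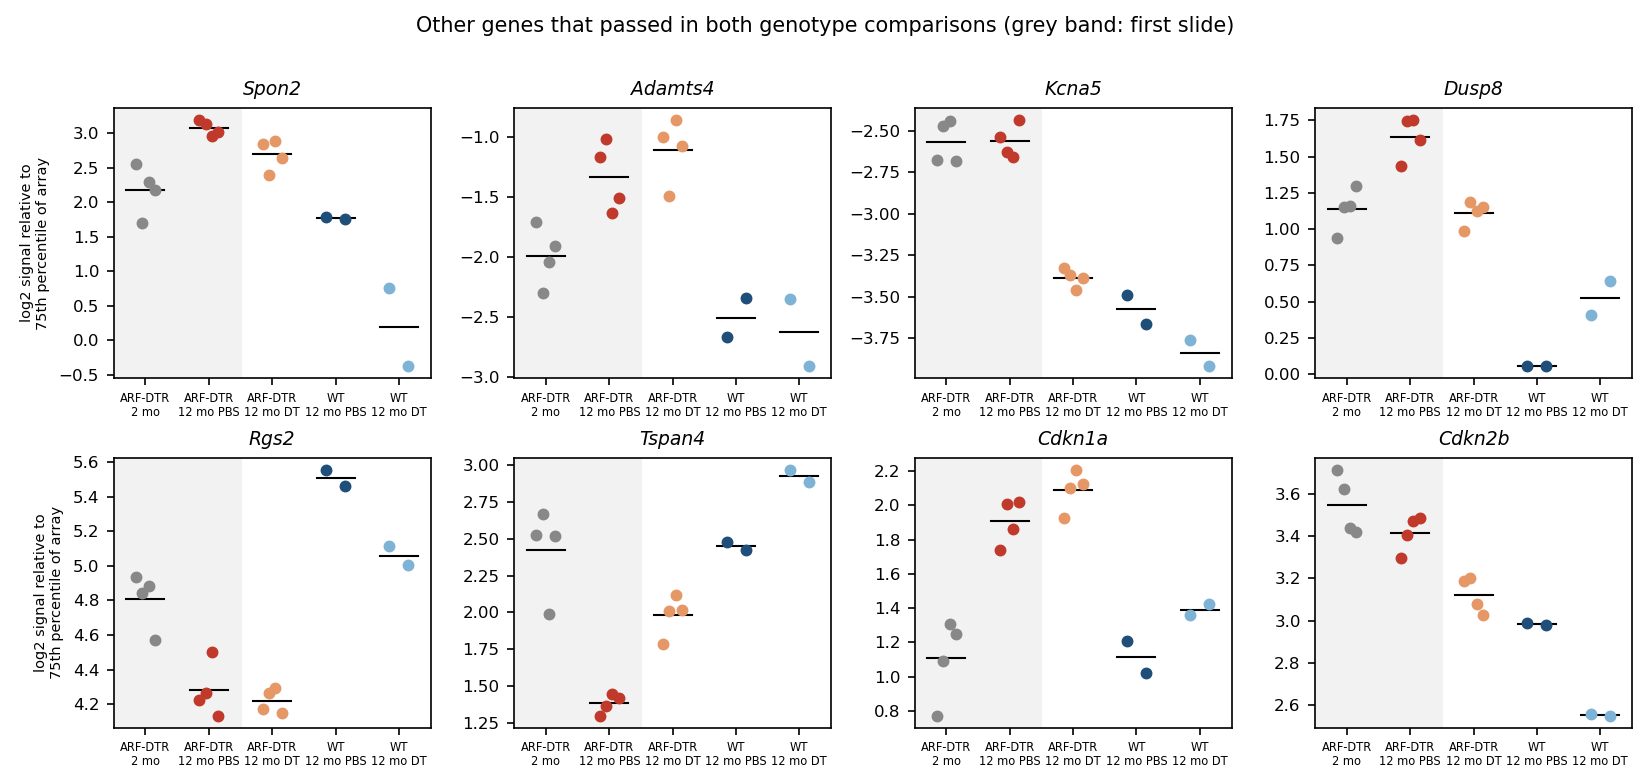
Log2 signal relative to the 75th percentile of the array for 8 genes outside the clock that passed in both genotype comparisons; each point is an array, bars are group means, and the grey band marks the first slide. For Cdkn2b and Rgs2 all ARF-DTR arrays of the 3 groups lie on 1 side of all wild type arrays, while Tspan4 shows 2-month values near the wild type ones.

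Among 21 measured cyclin-dependent kinase inhibitors and p53 targets, 6 passed higher and 5 lower with PBS (median -0.14). These were 28.6% and 23.8%, against 10.9% and 12.7% of all genes. With DT 2 passed higher and 1 lower (median -0.02). With median scaling the PBS split was 2 higher and 5 lower. Gdf15, a stress-induced cytokine, was at -0.50 to 0.24 against -1.12 and -1.25, a difference of 1.08 ± 0.21 (limma adjusted p = 0.00383), but -0.02 with DT (adjusted p = 0.980). Cdkn2d and Bax were lower by 0.44 ± 0.10 and 0.48 ± 0.16 on the log2 scale with PBS (limma adjusted p = 0.00782 and 0.0417). These calls were lost under 1 and 9 of 17 alternatives.

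Of 47 secreted factors linked to senescence, 6 rose (12.8%, near the 10.9% of all genes) and 1 fell with PBS (median -0.08), and 1 rose with DT (median 0.10). Median scaling changed the PBS split to 5 and 4. Igfbp7, an insulin-like growth factor binding protein of vessels, measured 1.75, 1.44, 1.55 and 1.74 in ARF-DTR PBS lungs and 0.33 and 0.15 in wild type PBS lungs, a difference of 1.38 ± 0.16 (limma adjusted p = 0.000220). The 2-month ARF-DTR arrays of the same slide were at 1.58 to 2.21. On the second slide ARF-DTR DT lay at 0.42 to 0.82 and wild type DT at 0.46 and 0.39, a difference of 0.22 (adjusted p = 0.573), so that Igfbp7 was high on all first-slide arrays and low on all second-slide arrays. Il1a had 0.77 ± 0.19 (adjusted p = 0.0127) with PBS and -0.33 with DT (adjusted p = 0.436). Ereg, an EGF-like ligand not well above background on either wild type PBS array, was at least 2.25-fold higher with PBS (adjusted p = 0.0457), a call lost under 10 of 16 alternatives.

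The 17 EGF-like ligands and ErbB receptors, the family of the toxin receptor, gave 1 higher and 3 lower with PBS (median -0.03). These were 5.9% and 17.6%, against 10.9% and 12.7% of all genes. There were 0 calls with DT (median 0.04), and 4 of the 17 had an unadjusted p under 0.05 (limma, against 15.6% of all genes). Erbb3, Cd9, which is a partner of the toxin receptor at the membrane, and Erbb2 fell by 0.42, 0.27 and 0.24 on the log2 scale (limma adjusted p = 0.0198, 0.0260 and 0.0316), and had 0.28, 0.02 and -0.05 with DT. Their PBS calls were lost under 4, 9 and 7 of the 17 alternatives. With quantile normalization the list gave 0 higher and 2 lower with PBS, and the Cd9 difference came as near 0 as -0.0098 under 1 alternative.

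The pattern of Igfbp7 was counted over the 2-fold genes. Since they were chosen on a first-slide against a second-slide group, the choice itself favours it, and nothing is read from its share. In 199 of the 563 (35.3%, against 9.95% of all genes tested) every array of the first slide lay above every array of the second, and 0 lay below, counts chosen after the values were seen. In 109 (19.4%, against 5.29%) every 12-month ARF-DTR array lay beyond every wild type array, 83 above and 26 below. Of the higher genes, 221 were not well above background on either wild type PBS array. Cox17, a copper chaperone for cytochrome oxidase, measured -1.50, -2.36, -2.41 and -2.22 in ARF-DTR PBS and -2.81 to -2.18 in 2-month lungs, against -4.92 and -3.89 in wild type PBS and -5.18 to -4.65 in ARF-DTR DT lungs. Its PBS difference was 2.28 ± 0.30 (limma adjusted p = 0.000453), while a second Cox17 probe gave 0.27 (unadjusted p = 0.313), so the difference depends on the probe. Its DT difference, against wild type DT arrays that were not well above background, was at least 1.11-fold (adjusted p = 0.865). The 2 differed by 2.13 (limma adjusted p = 0.0251). NP063432, Sele (E-selectin), Aste1 and Lmod2, also large with PBS and small or opposite with DT, were each not well above background on either wild type PBS array and were at least 4.85-fold, 1.72-fold, 2.41-fold and 2.71-fold higher. M19903 was at least 3.38-fold higher. Of the 2 wild type DT arrays, M19903 was well above background on both and Lmod2 on 1.

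Of the 6 genes named as lower with PBS and not with DT, 5 had both wild type PBS arrays above every other array of the series. The genes were chosen as lowest against wild type PBS and little changed or opposite with DT. That choice favours this pattern, so nothing is read from the count. Mapk8ip2, a scaffold of the JNK pathway, measured -2.44 and -2.56 in wild type PBS lungs, against -5.46 to -4.16 in ARF-DTR PBS and -5.49 and -5.53 in wild type DT lungs. It differed by -2.38 ± 0.32 with PBS (limma adjusted p = 0.000533) and by 0.53 with DT (adjusted p = 0.463). Cyp26b1, which degrades retinoic acid, was at 3.30 and 4.46 in wild type PBS lungs and at 0.29 to 1.58 in ARF-DTR PBS lungs (-2.95 ± 0.74, adjusted p = 0.0132), but ranged from -0.10 to 3.13 among 2-month lungs. Lrrc30, Adam26a, Hoxc4 and Frem3 had PBS differences of -2.96, -2.46, -2.31 and -1.66 and DT differences of 0.94, 0.03, -0.15 and 0.45. Adam26a was the exception, at -1.31 and -4.46 in wild type PBS lungs against -3.63 on the highest 2-month array.

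**Figure D4:**
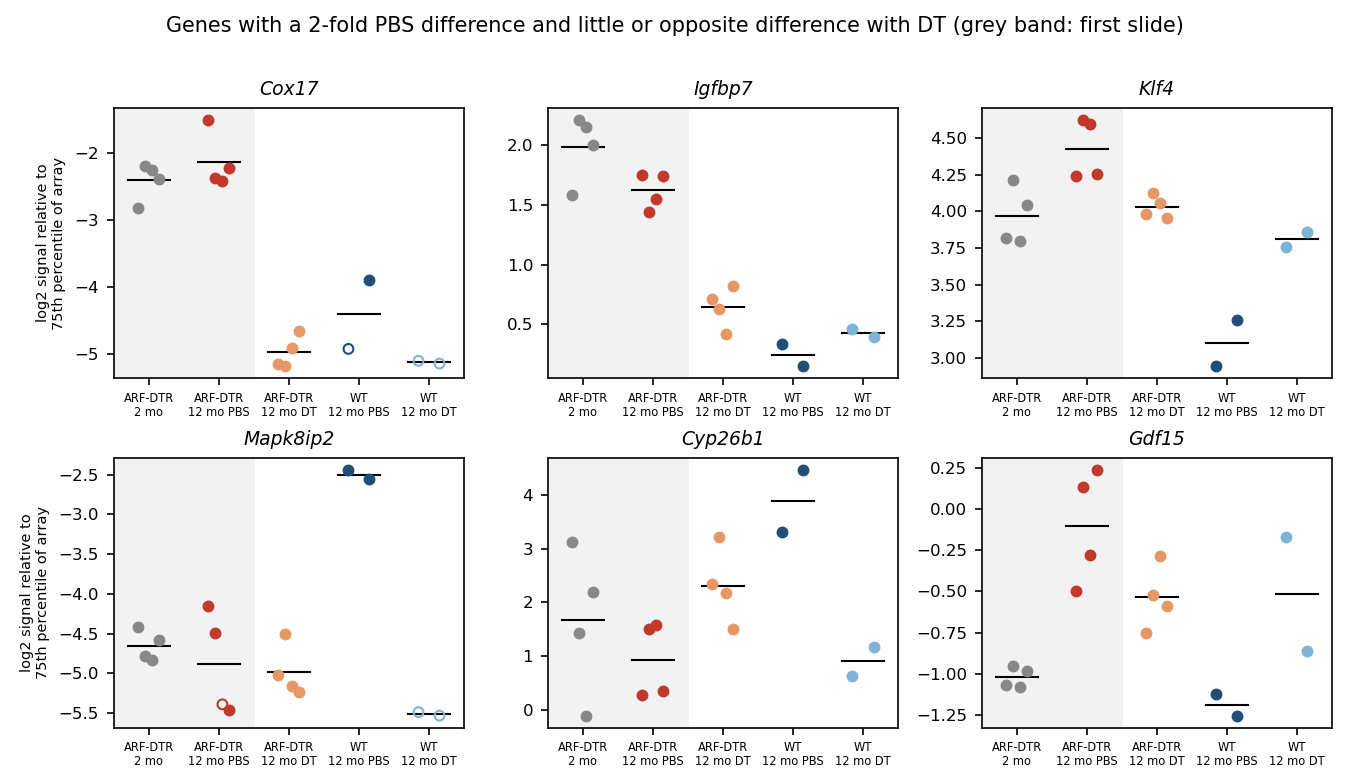
Log2 signal relative to the 75th percentile of the array for 6 genes with a 2-fold PBS difference that was small or opposite with DT; each point is an array, bars are group means, open points were not well above background, and the grey band marks the first slide. Cox17 and Igfbp7 are high on all first-slide arrays, while Mapk8ip2 and Cyp26b1 are highest in the 2 wild type PBS arrays.

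The reverse case, genes that passed with a 2-fold change with DT (70, 0.274% of those tested) and differed little with PBS, was led by Cd177, a neutrophil surface protein. It measured -1.67 to -0.69 in ARF-DTR PBS and -1.39 and -1.43 in wild type PBS lungs (0.20 ± 0.25, limma adjusted p = 0.595), but -2.87 to -2.17 in ARF-DTR DT against -0.72 and -0.24 in wild type DT lungs (-1.99 ± 0.25, adjusted p = 0.00376). The 2 differences differed (adjusted p = 0.00945). Nr4a1, an immediate early nuclear receptor, Wfdc16, Plxnb3 and Pgpep1l likewise had DT differences of -1.17, -1.18, -1.16 and -1.22 and PBS differences of 0.12, -0.34, 0.43 and 0.02. Their calls with DT were lost under 9, 8, 2 and 8 of 17 alternatives. A second Wfdc16 probe gave -0.72 with PBS and -0.58 with DT, so its place here depends on the probe. Apoh, Smco2, Rdh18-ps, Defb11 and Chek1 were not well above background on any wild type array. Bean1 had 1.24 with DT and -0.45 with PBS.

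Large gene families moved by small amounts with PBS. Of 74 cytosolic ribosomal protein genes, 70 fell (94.6%, against 12.7% of all genes) and 0 rose in ARF-DTR PBS lungs (median -0.44, against -0.02 over all genes). With DT 0 passed (median -0.08; 0 at an unadjusted p under 0.05, limma). With quantile normalization 14 fell and 2 rose (median -0.10). The mean level of the list, with each gene centred on its mean over all arrays, was -0.32 to -0.13 in ARF-DTR PBS and -0.30 to -0.14 in 2-month lungs, against 0.02 to 0.29 in ARF-DTR DT and 0.19 to 0.28 over both wild type groups. Rpl19, Rps23, Rps18 and Rpl34 changed by -0.61, -0.60, -0.60 and -0.58. Of 62 oxidative phosphorylation genes 32 fell (51.6%) and 1, Cox17, rose (median -0.25), and 0 passed with DT (median -0.06; 1 at an unadjusted p under 0.05, limma). Quantile normalization left 7 lower and 3 higher. Atp5e, Ndufa2 and Ndufs8 fell by 0.57, 0.54 and 0.49 on the log2 scale.

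Immune gene lists are given next, and for each the share that fell can be set against 12.7% of all genes tested. In bulk lung, fewer cells of a type and less RNA per cell cannot be told apart. Of 22 natural killer receptor genes 7 fell (31.8%) and 0 rose (median -0.71), and 0 passed with DT (median 0.13; 0 at an unadjusted p under 0.05, limma). Klrb1c (NK1.1) measured -2.08, -2.62, -2.29 and -1.55 in ARF-DTR PBS lungs and -0.85 and -0.74 in wild type PBS lungs (-1.34 ± 0.32, limma adjusted p = 0.0114), but -2.02 to -1.43 in ARF-DTR DT and -1.29 and -2.28 in wild type DT lungs. Ncr1, Klri2 and Klrb1a fell by 1.08, 0.97 and 0.82. Of 8 general NK cell markers 5 fell with PBS (median -0.73), and 0 passed with DT, adjusted or not (median 0.19).

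Of 34 interferon-induced genes 5 fell with PBS (14.7%, near the 12.7% of all genes; median -0.34), among them Ifit3, Bst2, Ifi35 and Ifit2, which changed by -0.89, -0.67, -0.40 and -0.40, and 0 passed with DT (median 0.15; 3 at an unadjusted p under 0.05, limma). Neutrophil granule genes had a median of -1.03 over 20 genes, but 2 fell, Mmp8 and Retnlg by 1.35 and 1.09, and Elane rose by 1.09. With DT their median was 0.01 and 0 passed (1 at an unadjusted p under 0.05, limma). The wild type PBS pair was the high group for the neutrophil granule genes. Their mean centred level was 0.69 and 0.82 there, and -0.47 to 0.39 on the ARF-DTR PBS arrays. It was -0.53 to 0.34 in ARF-DTR DT, -0.65 and 0.59 in wild type DT and -0.80 to 0.26 in 2-month lungs. Of 11 class II genes 3 fell and 1, the transactivator Ciita, rose (median -0.26), and with DT 0 passed (median -0.14; 2 at an unadjusted p under 0.05, limma). With quantile normalization 1 class II gene fell and 0 rose with PBS. H2-Oa, H2-Aa and H2-DMb1 changed by -0.74, -0.56 and -0.51 with PBS, calls lost under 10, 4 and 1 of 17 alternatives. The Ciita call was lost under 9 of 17.

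B cell genes leaned the same way in both comparisons. The 8 B cell markers had medians of -0.46 with PBS and -0.47 with DT. With PBS 2 fell, Cd79b (-0.79 ± 0.20, limma adjusted p = 0.0129) and Pax5 (-0.70 ± 0.17, adjusted p = 0.0131). With DT 0 passed, and 5 had an unadjusted p under 0.05 (limma), all lower, against 15.6% of all genes tested. Vpreb3, listed here with the immunoglobulin genes, passed in both. It measured 3.83, 3.84, 4.09 and 4.17 in ARF-DTR PBS lungs against 4.76 and 4.73 in wild type PBS lungs (-0.76 ± 0.15, adjusted p = 0.00454) and differed by -0.85 with DT (adjusted p = 0.0268). The other 8 measured immunoglobulin genes passed in neither comparison, and Igkv8-16 and Igh-VJ558 had PBS values of 1.96 and 0.82 with limma standard errors of 0.86 and 0.47.

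Of structural genes, 36 motile cilia genes had medians of -0.29 with PBS and -0.51 with DT. With PBS 5 fell (13.9%, near the 12.7% of all genes) and 1 rose, and with quantile normalization 1 fell and 1 rose. With DT 0 passed, and 28 had an unadjusted p under 0.05 (limma, 27 lower and 1 higher, against 15.6% of all genes tested). In 22 of the 36 the groups did not overlap with DT, against 24.4% of all genes tested. Tekt4 measured 1.99 to 2.30 against 2.89 and 2.80 (-0.71 ± 0.19, limma adjusted p = 0.0200) and had -0.46 with DT. Tekt1, Cfap126 and Rsph9 fell by 0.70, 0.63 and 0.60. Of 21 collagen chains 3 rose with PBS (14.3%, against 10.9% of all genes, with a median of 0.24), and 1 did with median scaling. With DT 0 rose (median 0.31), and 7 had an unadjusted p under 0.05 (limma, against 15.6% of all genes). The 3 that rose with PBS were Col6a3 (0.75), Col12a1 (0.64) and Col4a4 (0.23), which had 0.47, 0.24 and 0.25 with DT. Other Col4a4 probes gave 0.24 and -0.09 with PBS, so its direction there depends on the probe. Of 19 surfactant and lamellar body genes 3 fell with PBS (15.8%, against 12.7%), Elovl1, Sftpd and Sftpc by 0.59, 0.52 and 0.45 (list median -0.23), whereas with quantile normalization 2 rose and 0 fell. Their median with DT was 0.15.

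Of 17 glucocorticoid targets and metallothioneins 6 rose (35.3%, against 10.9% of all genes) and 0 fell (median 0.35), and 1 rose with DT (median -0.04). Pdk4, Cdkn1a, Slc39a14 and Tsc22d3 rose by 1.06, 0.79, 0.71 and 0.53. Tsc22d3 (GILZ), a direct glucocorticoid receptor target, measured 5.28 to 5.38 in ARF-DTR PBS lungs, 4.75 and 4.87 in wild type PBS lungs, and 5.39 and 5.56 in wild type DT lungs, so that the wild type PBS pair was the low group. Of 20 immediate early and stress kinase genes 5 rose and 3 fell with PBS (median 0.09; 3 and 3 with median scaling), while 2 fell with DT (median -0.26). With PBS these were 25% and 15%, against 10.9% and 12.7% of all genes. Klf4 rose by 1.32 ± 0.14 (limma adjusted p = 0.000119) and Atf3 by 1.18 ± 0.17 (adjusted p = 0.000991), and Junb fell by 1.06 ± 0.20 (adjusted p = 0.00292). With DT Klf4, Atf3 and Junb had 0.22, -0.08 and -0.26, and the 2 differences differed for Klf4 (adjusted p = 0.0192) and Atf3 (adjusted p = 0.0248).

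**Figure D5:**
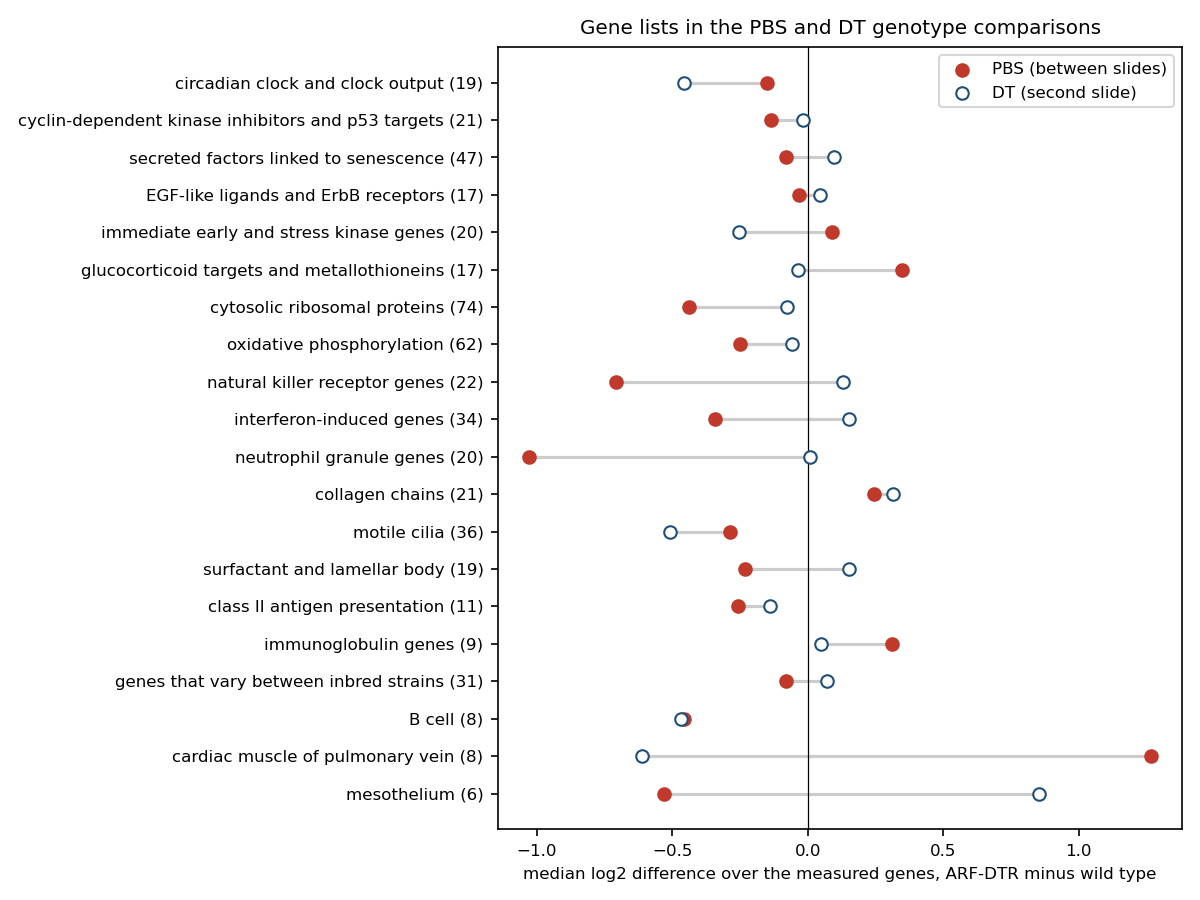
Median log2 difference, ARF-DTR minus wild type, over the measured genes of 20 lists (number in brackets), with PBS as filled and with DT as open points. B cell markers and collagen chains have like medians in both, natural killer receptor and neutrophil granule genes have a low median with PBS alone, and cardiac muscle markers change sign, from 1.27 to -0.61.

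Markers of 2 tissues at the edge of the lung had medians of opposite sign in the 2 comparisons. The 8 cardiac muscle markers, expressed in the wall of pulmonary veins, had medians of 1.27 with PBS and -0.61 with DT, and 0 passed in either (1 and 0 at an unadjusted p under 0.05, limma). Myh6 measured 6.30, 5.82, 5.42 and 6.13 in ARF-DTR PBS lungs against 4.23 and 4.82 in wild type PBS lungs, but spanned 0.49 to 6.47 among the 2-month lungs. Pln, Nppa and Tnnt2 had PBS values of 1.51, 1.39 and 1.28 with limma standard errors of 1.04, 1.68 and 0.78. The 6 mesothelium markers had medians of -0.53 and 0.85. Krt19 fell with PBS by 0.63 (adjusted p = 0.0240), and Bnc1, Lrrn4 and Upk3b had -0.65, -0.64 and -0.44 without passing. The part of these tissues in the results above was not tested.

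Of 40 listed genes known to differ between inbred strains, 31 were measured. With PBS 2 rose and 2 fell (median -0.08), 6.45% each way, against 10.9% and 12.7% of all genes. With DT 0 passed (median 0.07), and 2 had an unadjusted p under 0.05 (limma). The labels do not give the strains, so a difference in strain background was not tested, and nothing is read from these shares. Hdhd3 and Glo1 fell by 0.53 and 0.28, and Wdfy1 and Nnt rose by 0.42 and 0.26. Other probes gave -0.28, 0.15 and -0.02 for Wdfy1 and -0.14 for Nnt with PBS, so both rises depend on the probe. Glo1, which is duplicated in some strains, measured 2.70 to 2.83 in ARF-DTR PBS and 3.07 and 2.98 in wild type PBS lungs.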

How the data were processed

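Per the file headers the deposited files are scanner output of single-colour Agilent arrays placed on build mm9. Agilent Feature Extraction (10.10.1.1 per the submitters' processing notes) made them, and they hold background-subtracted, detrended intensity, with the mean spot and local background intensity used in 1 alternative. The authors' deposited value table holds log2 values that differed from those computed here by at most 0.011, so scale and centring were the same. Further steps by the authors: not given in the sources used here.

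Control spots and outlier spots (105 to 171 of 59305 per array) were left out, and log2 signals had the 75th percentile of the array subtracted. A filter kept probes detected above background in 4 or more of 16 arrays (37046), and the brightest stood for each of 25581 genes. Names came from the RefSeq accession (27656 probes), the symbol (3401), a synonym (321) or the file. The precision is limited by the number of arrays.

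One mean per group was fitted to all 16 arrays with limma 3.58.1 in R 4.3.3 (data.table, 1.17.8), two-sided, and ± is the standard error of that fit. A bound ("at least") sets the brighter group's mean against, per array, the higher of the probe's own signal and the dimmest signal well above background. The fit was tested on simulated data. Members, lists and tests were chosen with earlier results of these data known.

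Named genes were up to 12 in each direction past a 2-fold PBS change, with non-overlapping groups, a symbol and a call with DT. Up to 6 in each direction met all but the last and had under 0.5 (log2) or the opposite sign with DT, and up to 6 the reverse. Added to these were 4 study genes and up to 4 members of each list described; the remaining clock genes were named after their values were seen. Alternatives covered scaling, background correction, filters, probe choice, the variance model, the arrays fitted, a replicate block and single arrays left out.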

Additional observations from a re-analysis of the deposited data

Results flagged for a closer look

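The difference between the genotype difference with PBS and that with DT passed in 16 of the 108 genes followed (limma adjusted p under 0.05), against 2.1% of all genes tested. It was positive for NP063432 (3.19), Cd177 (2.18), Cox17 (2.13), Ciart (1.73), Plxnb3 (1.59), Atf3 (1.26), Igfbp7 (1.16), Klf4 (1.104), Dusp8 (0.99) and Kcna5 (0.56). It was negative for Mapk8ip2 (-2.91), Apoh (-1.91), Bean1 (-1.68), Erbb3 (-0.70), Atp5e (-0.57) and Rps23 (-0.53). Slide and the response to DT both enter this difference and cannot be told apart. Some of the 108 genes were chosen as large in 1 comparison and small or opposite in the other. That choice favours such calls, so nothing is read from their number.

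In 11 of the 216 groups of 4 arrays tested, 1 array lay far from the other 3, where chance gives about 1 in 20. ARF-DTR PBS replicate 4 was high for Cd9 (6.16), replicate 2 low for H2-Oa (0.23) and replicate 1 low for Ifi35 (2.59). ARF-DTR DT replicate 3 was high for Ifit3 (3.84), Junb (-1.89), Smco2 (-4.62) and Tnnt2 (3.27). Replicate 2 of that group was low for Cd79b (3.46) and H2-Aa (4.82), replicate 1 high for Vpreb3 (4.18) and replicate 4 low for Aste1 (-7.15).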

How the results depend on the processing

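The PBS count of 6044 stayed within 1.5 times under all alternatives except leaving out a wild type PBS array (2318 to 5759 over single arrays). The 2-fold count of 563 became 157 after normexp, 873 without a filter, 251 with probes above background on all 16 arrays, 1949 at 1.5-fold and 75 at 4-fold (463 to 607 over single arrays). The DT count of 227 became 124 after normexp, 3544 without a filter, 6 on its own arrays and 148 without the 2-month arrays, a setting added after seeing the data (78 to 297 over single arrays). ARF-DTR DT against wild type PBS, 1403 genes, gave 368 on its own arrays (202 to 1245). The test between the genotype differences, 538 genes, gave 1853 after normexp, 288 without a filter and 811 with trend and robust variance (226 to 1108). The 19 genes called in both became 9 after normexp, 70 without a filter, 1 on own arrays, 92 with no size threshold and 84 with both wild type groups pooled (10 to 28). With 2 pairs per comparison, deviations of same-numbered samples correlated at -0.03 and -0.08 between the PBS groups and at 0.15 and 0.14 between the DT groups, and no label pairs them, so they were taken to share only a number. The replicate block gave 5631 PBS, 492 2-fold, 90 DT and 13 shared calls. Of 139 single-gene results in 2332 values, 1924 kept direction and side, 371 lost the call, 13 gained it and 24 changed sign. Of genes called, these were Sele with PBS after normexp (-0.026) and Kcna5 with DT on the mean of its probes (-0.35). The others, not called, were with PBS Chek1 (-0.034 with median scaling, -0.074 with quantile, -0.34 with normexp, -0.18 to 0.30 over single arrays), Smco2 (-0.066 with quantile, -0.39 with normexp, -0.023 with the block, -0.43 to 0.62), Pgpep1l (-0.077 with median scaling, -0.082 with quantile, -0.25 with normexp, -0.00944 with the block, -0.068 to 0.15), Defb11 (-0.23 with normexp), Nr4a1 (-0.083 to 0.31) and Cdkn2a (-0.50 to 0.17; -0.65 to 0.38 with DT). The cause was not tested. Dim genes are limited most by signal over background.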
